A study of Mus musculus with 40 samples.

Results

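NCoR is a corepressor, a protein without DNA-binding activity of its own that nuclear receptors and other transcription factors bring to DNA. It works in a complex with the histone deacetylase HDAC3, and SMRT is its closest relative and can occupy the same place in that complex. In liver such complexes are known for holding down metabolic and circadian genes through receptors such as REV-ERB, the thyroid hormone receptors and the PPARs. The sites described here are NCoR peaks that stood without either partner and away from promoters. Such a peak was chosen by its position alone: no SMRT or HDAC3 peak had its centre within 200 bp, and its own centre kept clear of promoters, taken as the 1000 bp before and the 100 bp after each annotated transcription start site (TSS). Of 35138 NCoR peaks, 16749 met the rule. They were the larger part of the 30627 distal NCoR peaks, and 8023 distal peaks had both SMRT and HDAC3 in reach and are called shared distal sites below. The rest were 4525 distal peaks with HDAC3 only and 1330 with SMRT only, while 2976 NCoR-only peaks lay in promoters.

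The chromatin came from whole livers of ad libitum fed male Bcl6 fl/fl mice of a C57BL/6 background, whose floxed Bcl6 allele was intact because they carried no Albumin-cre, and whose age is not given in the sources used here. Each peak list (10654 SMRT, 35138 NCoR and 14462 HDAC3 peaks) was called from 3 pooled libraries, so 9 of the 40 samples stood behind the 3 lists, and a liver library holds chromatin of every cell type of the organ. The lists gave positions without heights, scores or values per animal, and sequencing depth is unknown. A site that SMRT or HDAC3 did not occupy and a site they occupied below the calling threshold cannot be told apart, and the tests and 95% intervals below cover counting error over sites, not variation between animals. Neighbouring sites are not independent either.

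The rule left few peaks near its limits on the partner side. In the band from 150 to 200 bp between an NCoR centre and the nearest SMRT or HDAC3 centre lay 48 peaks, which were not members, and from 200 to 250 bp lay 20, which could be. Most partnered peaks were far inside the limit, with 12110 at 50 bp or less. On the promoter side, 74 NCoR-only peaks lay from -1100 to -1000 bp relative to the TSS nearest to them, of which 72 were members, and 69 lay from -1000 to -900 bp, of which none was. The downstream limit was more crowded. From 0 to 100 bp past the TSS lay 641 NCoR-only peaks, none a member. From 100 to 200 bp lay 271, of which 207 were members, and from 200 to 300 bp lay 149, of which 111 were. A TSS was under 1 kb away for 5.96% of members and 3.35% of shared distal sites.

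A few of the 200 bp windows, read from the GRCm38 (mm10) plus strand in RefSeq's sequence, show what stood at the centre of these sites. The first 6 carry the motifs with the highest odds ratios against flanking sequence. The last carries HNF6/CUX2, which differed most firmly between members and shared distal sites and was less frequent in the members. That last window was added after the motif's values were seen. In each, capitals mark the motif match, which was required to lie as near to the peak centre as possible and at a site whose nearest gene belonged to one of the gene lists described below.

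DR1, intron of Hadh, chr3:131271279-131271478: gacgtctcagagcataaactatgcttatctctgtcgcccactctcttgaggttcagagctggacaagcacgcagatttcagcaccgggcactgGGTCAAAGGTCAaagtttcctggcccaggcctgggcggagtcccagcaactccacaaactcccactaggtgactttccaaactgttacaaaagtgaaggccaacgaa
NF1, upstream of Bdh1, chr16:31419608-31419807: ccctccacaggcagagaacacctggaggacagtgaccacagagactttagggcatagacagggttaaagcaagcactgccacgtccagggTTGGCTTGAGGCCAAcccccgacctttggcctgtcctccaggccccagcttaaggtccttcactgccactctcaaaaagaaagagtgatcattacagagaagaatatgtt
DR4, intron of Serpina1b, chr12:103823936-103824135: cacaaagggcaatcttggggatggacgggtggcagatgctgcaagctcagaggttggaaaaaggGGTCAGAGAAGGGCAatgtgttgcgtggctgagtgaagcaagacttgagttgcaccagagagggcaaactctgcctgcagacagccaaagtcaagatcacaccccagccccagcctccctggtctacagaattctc
HNF4 half-site, upstream of Gpam, chr19:55145192-55145391: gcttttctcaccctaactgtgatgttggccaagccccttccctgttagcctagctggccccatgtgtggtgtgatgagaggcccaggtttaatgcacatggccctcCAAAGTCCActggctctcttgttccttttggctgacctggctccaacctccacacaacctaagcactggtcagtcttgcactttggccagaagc
HNF1, intron of Igf1, chr10:87894793-87894992: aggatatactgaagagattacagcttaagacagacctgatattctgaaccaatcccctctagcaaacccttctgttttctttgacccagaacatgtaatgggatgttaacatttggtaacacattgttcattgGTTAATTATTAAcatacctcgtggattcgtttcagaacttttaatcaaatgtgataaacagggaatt
REV-ERB/ROR, intron of 2610035D17Rik, chr11:113076456-113076655: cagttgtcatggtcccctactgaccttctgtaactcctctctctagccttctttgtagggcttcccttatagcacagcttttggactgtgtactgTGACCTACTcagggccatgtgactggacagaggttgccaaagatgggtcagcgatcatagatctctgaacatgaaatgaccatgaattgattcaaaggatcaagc
HNF6/CUX2, intron of Rora, chr9:69314574-69314773: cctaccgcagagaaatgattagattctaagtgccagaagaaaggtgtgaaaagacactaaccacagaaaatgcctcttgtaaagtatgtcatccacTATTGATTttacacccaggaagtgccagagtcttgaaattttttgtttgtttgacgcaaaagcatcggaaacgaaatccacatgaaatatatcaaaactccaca

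DR1 is a direct repeat of the nuclear receptor half-site with a spacer of a single base, bound by HNF4 and by PPAR with its partner RXR. The Hadh window, in an intron 723 bp downstream of a start site of this mitochondrial fatty acid oxidation gene, held its DR1 match 1 bp from the peak centre, and its nearest shared site was 7.35 kb away. NF1 binds a palindrome. The match near Bdh1, which encodes the ketone body enzyme 3-hydroxybutyrate dehydrogenase, was 2.5 bp from the centre and at -2573 bp from the TSS, with a shared site 2.5 kb away. DR4, the arrangement that thyroid hormone receptors and LXR favour, lay 28.5 bp from the centre at Serpina1b, a member of a family of closely related antiprotease genes where uniquely mapped reads are harder to obtain. The nearest shared site there was 139.5 kb away. The Gpam window lay at -18075 bp from the TSS of the gene for mitochondrial glycerol-3-phosphate acyltransferase, the first enzyme of triglyceride synthesis, and the same window held a DR1 match beside its HNF4 half-site. The Igf1 window held an HNF1 match 39 bp from the centre in an AT-rich stretch with a GC content of 35.5%. The REV-ERB/ROR match, on the minus strand, was 0.5 bp from the centre, but the nearest protein-coding start, that of Sox9, was 294331 bp away. The Rora window, in an intron of a nuclear receptor gene that acts in the clock, held an HNF6/CUX2 match at the peak centre itself and a shared site 1.17 kb away.

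**Figure D1:**
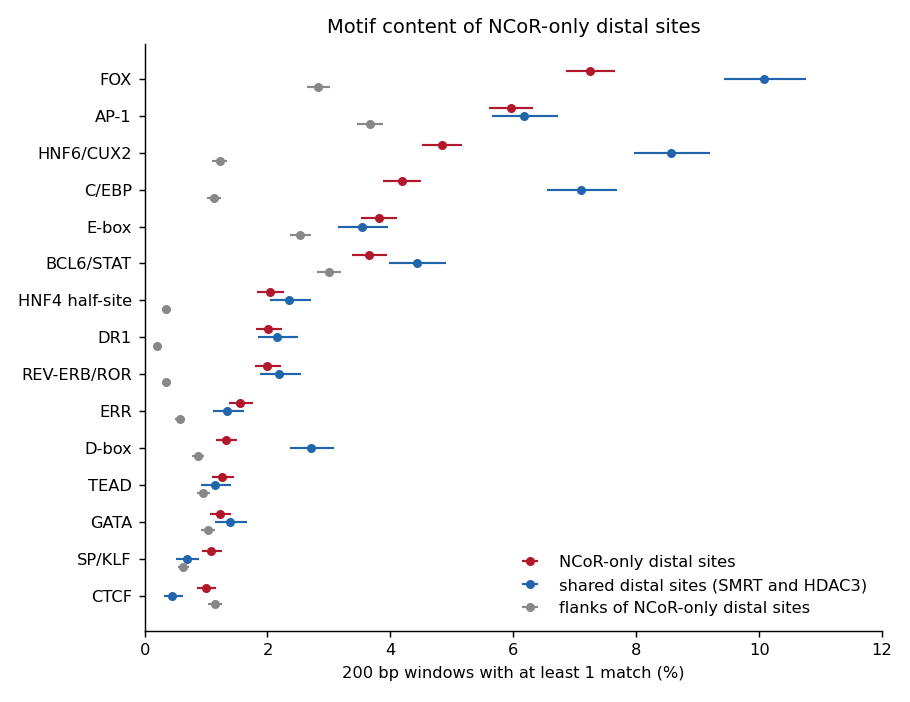
Share of 200 bp windows with at least 1 match (horizontal axis, %) for the 15 motifs found in at least 1% of NCoR-only distal sites, with exact 95% intervals as bars. Red points are NCoR-only distal sites, blue points shared distal sites and grey points windows 2 kb away from the NCoR-only distal sites. DR1 stands at 2.01% in members and 0.197% in flanks, and the red and blue points part for HNF6/CUX2 (4.84% and 8.56%) but overlap for DR1.

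To ask which motifs were concentrated at the sites, 29 motifs, each of 1 or more fixed strings, were searched on both strands of the central 200 bp and in 31982 windows 2 kb to either side of the members (see the plot of motif shares). At an adjusted p below 0.05 (two-sided Fisher's exact test, Benjamini-Hochberg over the motifs), 22 motifs were more frequent in the members and 0 were less frequent, also at an unadjusted p below 0.05. The nuclear receptor motifs had the highest odds ratios among those with many matches. DR1 was found in 337 members (2.01%, 1.81 to 2.24) and in 0.197% of flanks, an odds ratio of 10.4 (adjusted p = 4.74e-94). The HNF4 half-site (CAAAGTCCA), which a DR1 element can contain, was present in 2.04% and 0.350% with an odds ratio of 5.93. The REV-ERB/ROR element (ANTAGGTCA), the half-site with an AT-rich flank that recruits NCoR through REV-ERB, was present in 2.0% and 0.356% (odds ratio 5.71, adjusted p = 1.32e-67 by Fisher's exact test). DR4 was rarer, at 0.508% against 0.0813% (odds ratio 6.27), and so was the inverted repeat IR1 of the bile acid receptor FXR, at 0.125% against 0.0281% (odds ratio 4.46). The ERR element (TCAAGGTCA) had an odds ratio of 2.75.

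Among the motifs of hepatocyte factors FOX was the most abundant. FOX (TGTTTAC), the element of the pioneer factors FOXA, was present in 1214 members (7.25%, 6.86 to 7.65) and in 2.83% of flanks (odds ratio 2.69, adjusted p = 1.51e-106, Fisher's exact test). HNF6/CUX2 (such as TATTGATT or TATCGATT) was present in 810 members, 4.84% against 1.22% of flanks, an odds ratio of 4.12. C/EBP (such as TTGTGCAA) was present in 4.19% and 1.13% (odds ratio 3.84). HNF1 was found in 30 members and 10 flanks (odds ratio 5.74), and NF1 in 11 members and 3 flanks (odds ratio 7.01). With so few matches the NF1 value was not past the threshold once sites with another NCoR peak within 10 kb were left out (odds ratio 3.0, adjusted p = 0.374). AP-1 (TGACTCA), the element of FOS and JUN dimers, was present in 5.96% against 3.67% (odds ratio 1.66), and BCL6/STAT (such as TTCCNGGAA) in 3.65% against 3.0% (odds ratio 1.23). ETS/ELK (CCGGAAGT) had an odds ratio of 2.08, SP/KLF (GGGGCGGGG) 1.75, PU.1 (GAGGAAGTG) 1.71, the E-box (CACGTG) of the clock proteins BMAL1 and CLOCK 1.53 and the D-box (TTATGTAA) of DBP and its relatives 1.54. GATA, RUNX, SOX, MEF2, NRF1, YY1 and CTCF did not pass. The comparison motif CTCF was present in 1.0% of members and 1.14% of flanks (odds ratio 0.880, adjusted p = 0.204), and without repeat-masked bases it was more frequent in members (odds ratio 1.98, adjusted p = 6.38e-08).

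A motif was absent from most sites. None of the 28 motifs other than CTCF matched in 60.4% of members (59.7 to 61.2), compared with 53.4% of shared distal sites and 79.6% of flanks. At least 2 different motifs were found in 7.49% of members, in 10.8% of shared distal sites and in 2.18% of flanks. A fixed string misses sites with a mismatch, so a window without a match says only that these letters were not there.

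**Figure D2:**
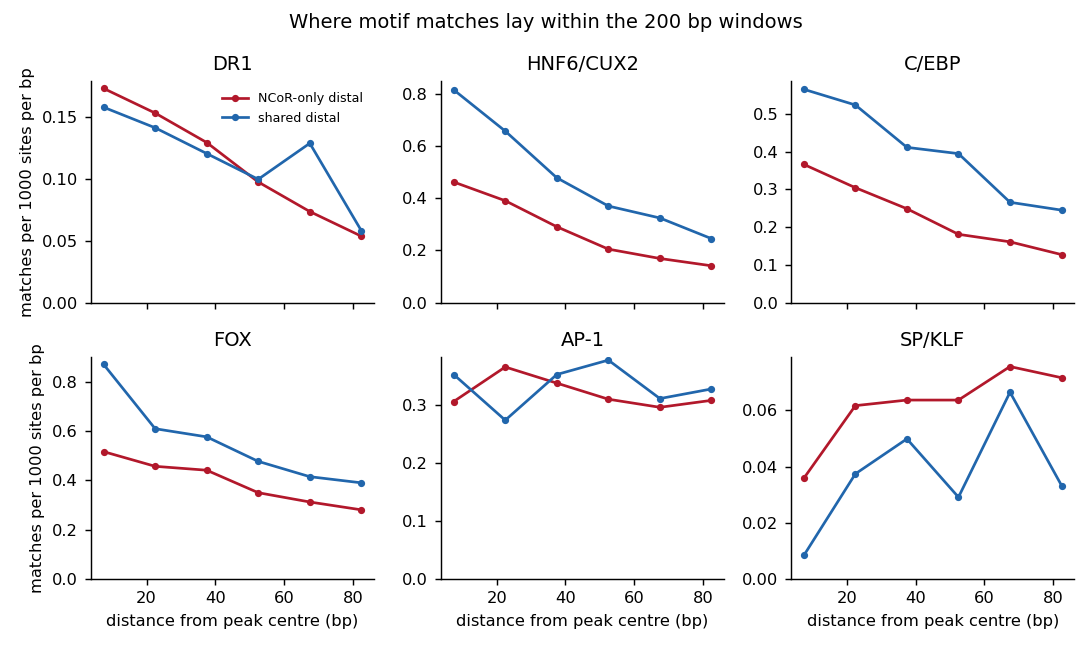
Number of motif matches per 1000 sites and bp (vertical axis) against the distance of the match from the peak centre (horizontal axis, bp), in 15 bp bins, for 6 motifs. Red lines are NCoR-only distal sites and blue lines shared distal sites. DR1, HNF6/CUX2, C/EBP and FOX decline with distance in both, AP-1 is nearly level, and SP/KLF in the members is lowest at the centre.

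Where the matches lay within the window also differed between motifs, as the plot by distance from the centre shows. In the members, the median distance from the peak centre was 29 bp for HNF6/CUX2, 31 bp for DR1, 32 bp for C/EBP and 31.5 bp for REV-ERB/ROR. DR1 matches fell from 0.173 per 1000 sites and bp in the innermost 15 bp to 0.0537 in the bin from 75 to 90 bp. For FOX the median was 38.5 bp. AP-1 and BCL6/STAT had a median of 46.5 bp, near the middle of the distances a 200 bp window allows, and SP/KLF (55 bp) and ETS/ELK (54 bp) lay farther out than CTCF (49.5 bp). Within 25 bp of the centre were 44.7% of HNF6/CUX2, 42.4% of DR1 and 42.1% of C/EBP matches, but 27.2% of AP-1 matches. In shared distal sites the corresponding shares were 43.7%, 35.6%, 40.2% and 24.3%. These positions are given as a description and were not tested.

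Next, the members were compared with the 8023 shared distal sites, where SMRT and HDAC3 were both present. HNF6/CUX2, C/EBP, FOX, the D-box and BCL6/STAT were less frequent without the partners. HNF6/CUX2 was present in 4.84% (4.52 to 5.17) of members and in 8.56% (7.96 to 9.20) of shared distal sites, an odds ratio of 0.543 (95% interval 0.488 to 0.603, Fisher's exact test adjusted over 87 motif tests in 3 comparisons, p = 9.71e-28). C/EBP was present in 4.19% and 7.11% (odds ratio 0.571, 0.510 to 0.640, adjusted p = 3.58e-20). FOX was present in 7.25% and 10.1% (odds ratio 0.697, 0.635 to 0.765), and the D-box in 1.33% and 2.71% (odds ratio 0.483, 0.40 to 0.584, adjusted p = 7.92e-13). Under every alternative run, these 4 motifs stayed lower in the members and past the threshold. HNF1, another hepatocyte factor, did not pass (0.179% against 0.224%, odds ratio 0.798, 0.445 to 1.43, adjusted p = 0.654), and its direction turned among sites with no other NCoR peak within 10 kb (1.89). BCL6/STAT was also lower, at 3.65% and 4.43% (odds ratio 0.819, 0.717 to 0.936, adjusted p = 0.0117). That difference was no longer past the threshold in the central 100 bp (0.875, adjusted p = 0.402) or among sites with no other NCoR peak within 10 kb (0.964, adjusted p = 0.930).

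No nuclear receptor motif was past the threshold against shared distal sites. DR1 was found in 2.01% of members and 2.16% of shared distal sites (odds ratio 0.932, 95% interval 0.774 to 1.12, adjusted p = 0.654, Fisher's exact test). The odds ratio was 0.910 (0.757 to 1.09) for REV-ERB/ROR, 0.864 (0.722 to 1.03) for the HNF4 half-site, 0.969 (0.669 to 1.40) for DR4 and 1.16 (0.926 to 1.45) for ERR, none past the threshold. The intervals reach down to 0.757 for REV-ERB/ROR and 0.669 for DR4, so modest differences in either direction were not detectable at these counts. AP-1 (0.964, 0.862 to 1.08) and the E-box (1.08, 0.936 to 1.24) did not pass either. DR1, DR4, the HNF4 half-site and AP-1 changed direction, without passing, under some of the alternatives.

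Another set was more frequent in the members than in shared distal sites. CTCF, bound by the insulator protein of that name, was present in 1.0% and 0.449% (odds ratio 2.25, 1.57 to 3.22, adjusted p = 1.43e-05, Fisher's exact test). The flanks of the members held it in 1.14%, so members were not above their own flanks unless repeat-masked bases were left out. The PU.1 motif (GAGGAAGTG), named for a factor of macrophages and B cells, was found in 139 members (0.830%) and 36 shared distal sites (0.449%). The odds ratio was 1.86 (1.29 to 2.68, adjusted p = 0.00259, Fisher's exact test). Binding by PU.1 itself was not tested. In the central 100 bp the PU.1 odds ratio rose to 3.51 (adjusted p = 0.000175). ETS/ELK was present in 64 members and 11 shared distal sites (odds ratio 2.79, 1.47 to 5.30, adjusted p = 0.00289). It was not past the threshold with promoters widened to 5000 bp on either side (2.35, adjusted p = 0.0732), in the central 100 bp (1.68) or without sites that had a neighbour within 10 kb (1.43). SP/KLF had an odds ratio of 1.59 (1.18 to 2.15, adjusted p = 0.00704), which fell to 1.17 (adjusted p = 0.558) when sites were compared within strata of GC content.

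Against the 4525 distal NCoR peaks with HDAC3 but not SMRT, fewer motifs differed. C/EBP (4.19% against 5.70%, odds ratio 0.722, adjusted p = 0.000104), REV-ERB/ROR (2.0% against 2.83%, odds ratio 0.701, adjusted p = 0.00392) and BCL6/STAT (odds ratio 0.799, adjusted p = 0.0226) were less frequent in the members by Fisher's exact test. PU.1 alone was more frequent (0.830% against 0.464%, odds ratio 1.79, 1.13 to 2.84, adjusted p = 0.0318), and in the central 100 bp 0 motifs were past the threshold in that direction.

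The 2976 NCoR-only peaks in promoters differed from the members in another way. SP/KLF was present in 12.9% of those promoters and 1.09% of the members (odds ratio 0.0742, adjusted p = 2.94e-182, Fisher's exact test), and ETS/ELK in 4.70% and 0.382% (odds ratio 0.0777). CREB, NRF1, YY1 and the E-box were also less frequent in the members. HNF6/CUX2 (4.84% against 1.48%, odds ratio 3.39), REV-ERB/ROR (odds ratio 3.02), C/EBP (2.24), DR1 (2.16) and FOX (2.14) were among 12 motifs that were more frequent in the members. Those promoter windows had a median GC content of 61%, against 47.5% in the members, and within strata of GC content AP-1 alone was past the threshold as more frequent (odds ratio 1.43, adjusted p = 0.013), while SP/KLF (0.429) and ETS/ELK (0.1995) stayed less frequent. GATA, at 1.41 without strata and not past the threshold, was less frequent within them (0.574, adjusted p = 0.0389), as was IRF (0.854 without strata, not past the threshold, and 0.468 within them, adjusted p = 0.0258).

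To look beyond known motifs, all 8192 words of 7 bases (both strands pooled) were compared between members and shared distal sites. In the members 405 words were more frequent, which is 4.94% of those tested, and 337 were less frequent, which is 4.11% (Fisher's exact test, adjusted p below 0.05). Among the more frequent words, 209 contained the dinucleotide CG, compared with 11 of the less frequent ones. How many of all 8192 words contain CG was not counted, so the directions can be compared only with each other. The word CGCGACG had the highest odds ratio, with 27 members and 1 shared distal site (odds ratio 13.0, 95% interval 1.76 to 95.3, adjusted p = 0.00857, Fisher's exact test). CGCCGCG was found in 117 members and 12 shared distal sites, an odds ratio of 4.70 (2.59 to 8.51), and AACGCGG, followed in rank by ACGCGCG and CGCCGAC, had one of 5.92. Of the 5 words with the lowest odds ratios, ATCGATC and TCGATCA are overlapping parts of a TATCGATC form of the HNF6/CUX2 element with its flank. ATCGATC was found in 0.896% of members and 1.90% of shared distal sites (odds ratio 0.468, adjusted p = 2.37e-08, Fisher's exact test), TCGATCA in 0.513% and 1.16%, and AATCGAT in 1.03% and 1.97%. CGAATAG had the lowest odds ratio, 0.404 (0.229 to 0.714, adjusted p = 0.0277), with 22 members and 26 shared distal sites, and CAATACG had one of 0.478. Within strata of GC content 197 words were more and 240 less frequent in the members, and with promoters widened to 5000 bp on either side 132 were more and 145 less frequent. Both settings turned the balance between the directions.

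Base composition moved with these words. A GC content of at least 50% was found in 37.7% of members and 34.87% of shared distal sites (odds ratio 1.13, adjusted p = 1.48e-05, Fisher's exact test), and at least 5 CpG dinucleotides in 18.5% and 14.3% (odds ratio 1.36, adjusted p = 4.28e-16). The centre lay in a repeat in 10.5% and 8.78% (odds ratio 1.22). With promoters widened to 5000 bp on either side the GC difference was not past the threshold (odds ratio 1.06, adjusted p = 0.0735).

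Within the members, composition sorted the motifs strongly. HNF6/CUX2 was present in 12.7% (11.2 to 14.2) of the 1967 members with a GC content under 40%, in 5.34% of those from 40 to 50% and in 1.73% (1.42 to 2.08) of the 6317 members at 50% or more. C/EBP went the same way (7.12%, 4.73% and 2.55%), while the E-box rose from 1.17% to 3.34% and 5.26% and SP/KLF from 0.102% to 0.307% and 2.44%. DR1 varied less, at 1.47%, 1.93% and 2.30%. Distance from a TSS sorted them too. Among members under 5 kb, from 5 to 50 kb and over 50 kb from a TSS, FOX was present in 6.18%, 7.33% and 9.40%, HNF6/CUX2 in 3.47%, 5.04% and 7.05% and AP-1 in 5.62%, 5.85% and 7.36%. DR1 was nearly level, at 1.98%, 2.04% and 1.93%. SP/KLF was present in 1.96% of the nearest group and 0.626% of the farthest. These shares are a description of the members and were not tested.

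**Figure D3:**
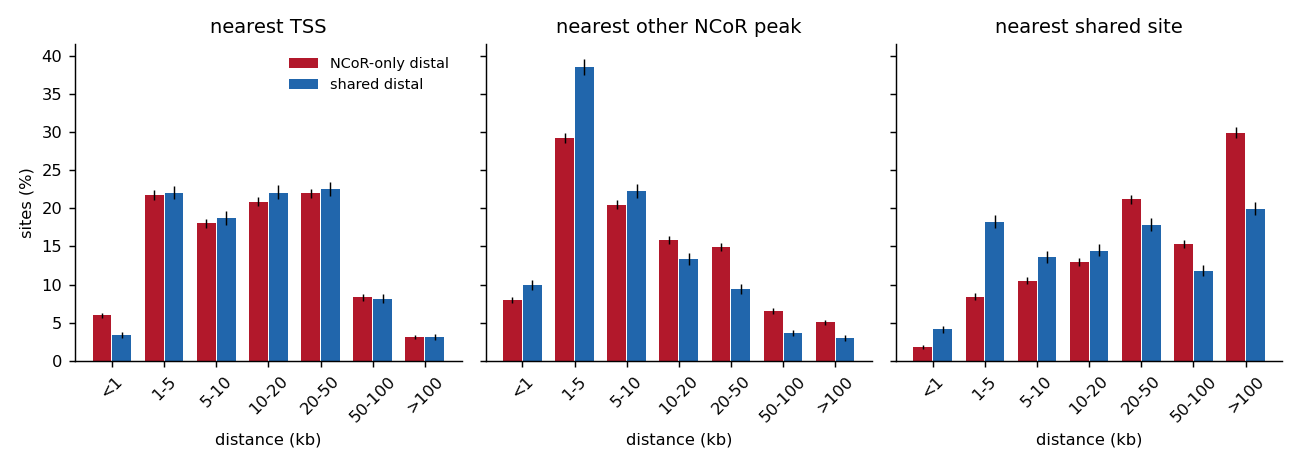
Share of sites (vertical axis, %) by distance in kb to the nearest TSS (left), the nearest other NCoR peak (middle) and the nearest shared site (right), with exact 95% intervals as error bars. Red bars are the 16749 NCoR-only distal sites and blue bars the 8023 shared distal sites. The profiles are close on the left from 1 kb up, and on the right 29.9% of the members lie over 100 kb from a shared site, more than the blue bar beside them.

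The sites were then placed relative to genes. Introns held 60.2% of members (59.5 to 61.0), exons 6.54% (2.18% in coding sequence and 2.87% in untranslated regions) and intergenic stretches 33.2%. Compared with shared distal sites, members were more often in exons (6.54% against 4.70%, odds ratio 1.42, adjusted p = 1.24e-08, Fisher's exact test) and introns (odds ratio 1.09) and less often intergenic (odds ratio 0.840, adjusted p = 3.59e-09). The exon difference was no longer past the threshold with promoters widened to 5000 bp (odds ratio 1.08, adjusted p = 0.414). The median distance to a TSS was 11.53 kb (quartiles 4.36 and 27.3 kb), and a distance over 50 kb was found in 11.4% of members and 11.3% of shared distal sites (odds ratio 1.02, 95% interval 0.934 to 1.11, adjusted p = 0.716). The member farthest from any annotated TSS, at chr1:145972488-145972716, was 448 kb away.

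Members stood more alone than shared sites, as the plot of distances shows. Another NCoR peak lay within 10 kb of 57.6% of members (56.9 to 58.4) and 70.6% of shared distal sites (odds ratio 0.567, adjusted p = 1.12e-87, Fisher's exact test). A shared site lay within 10 kb of 20.7% of members, compared with 36.0% of shared distal sites that had a further shared site there (odds ratio 0.465, adjusted p = 3.96e-141). The median distance to the nearest shared site was 41.2 kb for members and 19.6 kb for shared distal sites, and 301 members had one within 1 kb. Along the chromosomes, 4207 of 8323 unbroken runs of neighbouring member peaks held a single member. With 16749 of all 35138 NCoR peaks being members, runs would form in any order of the peaks. No such expectation was computed, so the runs are a description. The longest runs held 13 members. On chromosome 7 such a run spanned 0.446 Mb from 97700900 to 98146681, with 7 of its members nearest to Myo7a, and both others were on X. A run of 12 lay on chromosome 1 around Rgl1, and another on chromosome 2 began in the 3′ part of Rxra.

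Autosomes carried 6.85 members per Mb of known sequence, from 5.17 on chromosome 14 to 10.6 on chromosome 19, and 54.5% (53.9 to 55.1) of their distal NCoR peaks were members. The X chromosome, single in these male animals, carried 334 members, or 2.04 per Mb, which were 66.0% (61.7 to 70.1) of its 506 distal NCoR peaks. On the individual autosomes that share ran from 52.1% on chromosome 4 to 57.9% on chromosome 2.

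Members were given to the protein-coding gene whose TSS was closest. At least 1 member was held by 7661 of 21938 protein-coding genes, or 34.9%, and 3907 of these held exactly 1, 726 held 5 or more and 103 held 10 or more. Genes with a member often had partnered NCoR peaks as well. A gene with a shared site held 58.0% of the members, while 28.9% were at the 3261 genes with a member and no partnered NCoR peak. A gene with a long stretch in which its TSS is the nearest, its territory, can collect more sites. The median territory was 471 kb for genes with 10 or more members and 47.0 kb for all protein-coding genes.

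The gene with the most members was Adgrl2, an adhesion G protein-coupled receptor, with 22 in a territory of 2356 kb, of which 3 lay inside the gene. Myc followed with 21, all outside the gene, and Pik3r1, the regulatory subunit p85 of PI3-kinase, with 20 beside 17 shared sites. Arid1b, a subunit of BAF chromatin remodelling complexes, and Lpp, an adhesion protein, held 19 each, and Nrp1, a coreceptor for VEGF and semaphorins, held 18. Tbl1xr1, which encodes a subunit of the NCoR and SMRT complexes, also held 18, and Bcor, which encodes a corepressor that binds BCL6, held 17. At Foxp1 all 17 members lay inside the gene, along with 4 shared sites. Cited2, a partner of the coactivators CBP and p300, held 17 members but 1 shared site, which lay at -0.920 kb from its TSS. Of those 17 members, 16 lay upstream, from -1094 to -39.0 kb, and 1 lay 4.31 kb downstream of the TSS.

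**Figure D4:**
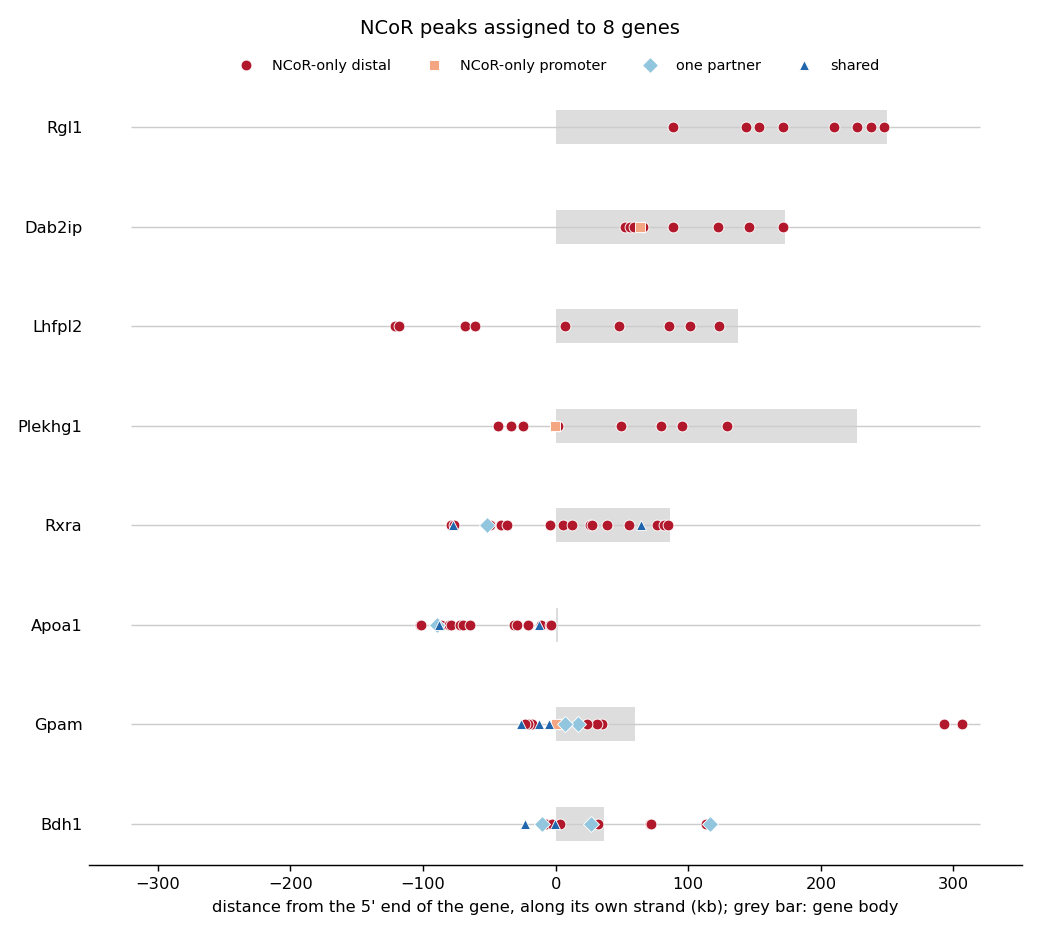
NCoR peaks assigned to 8 genes, by distance in kb from the gene's 5′ end along its own strand (horizontal axis), with the gene body as a grey bar. Red circles are NCoR-only distal sites, orange squares NCoR-only promoter peaks, light blue diamonds peaks with SMRT or HDAC3 and dark blue triangles peaks with both. The first 4 genes (Rgl1, Dab2ip, Lhfpl2 and Plekhg1) have no blue symbols, and at Rxra 15 red circles stand beside 2 triangles.

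Some genes held members and no NCoR peak with SMRT or HDAC3, as the map of sites at 8 genes shows. Lhfpl2 held the most, with 9 members, of which 5 were inside the gene and 4 were upstream. Dab2ip, a Ras GTPase-activating protein, held 8, all inside the gene, together with an NCoR-only promoter peak. Rgl1, an exchange factor for Ral GTPases, held 8 inside the gene, from chr1:152518953-152519181 in an exon near its 3′ end to chr1:152677719-152677947 in an intron. Of the 8 Rgl1 members, 1 held an HNF6/CUX2 and 1 a FOX match, and the others held no match. Erc2, a scaffold of the presynaptic active zone, held 8, of which 7 were inside the gene, and Plekhg1 held 8, of which 5 were inside. SMRT or HDAC3 peaks were at none of the NCoR peaks of these 5 genes, which were picked for that property. SMRT or HDAC3 peaks without NCoR were not assigned to genes.

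**Figure D5:**
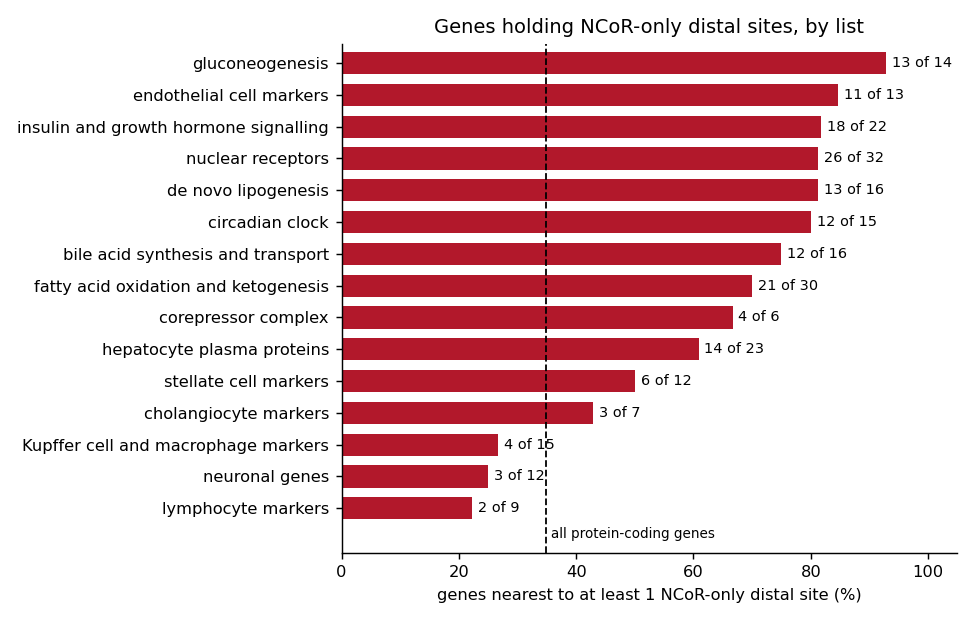
Share of the genes of each list that were nearest to at least 1 NCoR-only distal site (horizontal axis, %), with the number of genes beside each bar. The dashed line is the share of all protein-coding genes, 34.9%. Metabolic, nuclear receptor and endothelial lists stand above the line, and the macrophage, neuronal and lymphocyte lists stand below it.

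By gene list, members were widespread at genes of hepatocyte metabolism and its regulators, as the plot of gene lists shows, against the 34.9% of all protein-coding genes. Shared sites were widespread there too, against 4587 of all 21938 protein-coding genes. They were held by 24 of 32 nuclear receptor, 10 of 15 clock, 25 of 30 fatty acid oxidation and ketogenesis and 15 of 16 lipogenesis genes. The counts were 11 of 14 for gluconeogenesis, 13 of 16 for bile acid, 15 of 22 for insulin and growth hormone signalling and 16 of 23 for plasma protein genes. The lists have no test, and their genes differ from others in territory and activity. Of the nuclear receptors 26 of 32 (81.3%) held a member, with a median of 2 compared with 0 over all protein-coding genes, and 15.2 members per Mb of territory compared with 6.15. Rxra, the obligate partner of many of them, held the most, with 15 in a territory of 202 kb, of which 9 lay inside the gene, beside 2 shared sites. Of those 15, 1 held an HNF6/CUX2 and 1 an AP-1 match, and the remaining members held none of the motifs. Thrb, a thyroid hormone receptor, held 14, all inside the gene, beside 3 shared sites, and Rora held 14 beside 10. Nr2f2 (COUP-TFII) held 12, Nr5a2 (LRH-1) 11, and Esrrg and the glucocorticoid receptor gene Nr3c1 held 9 each. Ppara, the receptor of the fasting response, held 5 beside 9 shared sites, and Nr1d1 and Nr1d2, the genes of both REV-ERBs, held 2 each. No member was assigned to Thra, Rxrb, Nr1h2, Nr1h3, Vdr or Nr0b2. Of the corepressor complex genes 4 of 6 held a member, and Hdac3 and Gps2 did not.

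Of the circadian clock genes 12 of 15 (80.0%) held a member. Bhlhe40 led with 7 beside 6 shared sites, and Arntl (BMAL1) held 5 beside 3. Per2, a repressor of the core clock, held 5 members and 0 shared sites, and Dbp and Ciart held 1 each without a shared site. Per1, Per3 and Cry1 held no member. Of the fatty acid oxidation and ketogenesis genes 21 of 30 (70.0%) held a member, mostly 1 each. These genes held 54 shared sites against 34 members, compared with 8739 against 16749 over all protein-coding genes. Bdh1 held 7, of which 2 were inside the gene, and its promoter carried a shared site at -0.073 kb from the TSS. Acaa2 held 4, Cpt1a 2 beside 4 shared sites, and Pdk4 held 1 beside 6.

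De novo lipogenesis genes held a member in 13 of 16 cases (81.3%), with 26.3 members per Mb of territory, the highest density of the 15 lists. The list also held many shared sites, 40 against 48 members, compared with 8739 against 16749 over all protein-coding genes. Gpam held 10, of which 5 were inside the gene and 3 lay close together from -23.2 to -18.1 kb, between shared sites at -26.0 and -12.2 kb. Fasn, Acly and Acaca, which make fatty acids from citrate, held 4 members and 1 shared site each, while Scd1 held 0 members and 4 shared sites. Of the gluconeogenesis genes 13 of 14 (92.9%) held a member. Ppargc1a, the coactivator PGC-1α, led with 9, of which 4 lay in introns from 8.02 to 25.9 kb from the nearest start site of the gene. Pck1 held 2 and G6pc, the last enzyme of glucose release, held 1 beside 6 shared sites. Of the bile acid genes 12 of 16 held a member, led by Cyp7b1 of the alternative synthesis pathway with 7 beside 1 shared site. Cyp7a1, the rate-limiting enzyme of the classical pathway, held 2 beside 5, and Cyp8b1 and the bile salt export pump gene Abcb11 held 0.

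Of the insulin and growth hormone signalling genes 18 of 22 (81.8%) held a member. Beside Pik3r1, the insulin receptor gene Insr held 11 with 1 shared site, and Irs2 held 10 with 13. Ghr held 9 and Igf1 held 8, each with 6 shared sites. Hepatocyte plasma protein genes held a member in 14 of 23 cases (60.9%). Apoa1, the main protein of HDL, held 14 in a territory of 111 kb, all upstream of the gene and none inside it. Of those, 12 lay in introns outside Apoa1, from -102 to -11.3 kb, and the most distant, at chr9:46126410-46126638, held a DR1 match. Apob held 9 and Ttr held 5, whereas Alb held 3 beside 3 shared sites.

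Markers of the other cells of the liver were checked because the libraries came from whole tissue. Of the endothelial markers 11 of 13 (84.6%) held a member, led by the VEGF receptor gene Kdr with 5 beside 1 shared site, and Pecam1, Cdh5 and Lyve1 held 4 each. The list had 28 members and 7 shared sites, compared with 16749 and 8739 over all protein-coding genes. No partnered NCoR peak was held by any of the 15 Kupffer cell and macrophage markers, nor by 15342 of all 21938 protein-coding genes. Of the 15 markers 4 (26.7%) held a member. Those were Csf1r and Mpeg1 with 2 and Adgre1 and Cx3cr1 with 1 each, while the Kupffer cell genes Clec4f, Vsig4, Timd4 and Marco and the PU.1 gene Spi1 held none. Of the stellate cell markers 6 of 12 held a member, with Pdgfrb, Reln, Dcn and Col3a1 at 2 each. Among cholangiocyte markers 3 of 7 (42.9%) did, with 15 at Sox9 alone. All 15 lay outside that gene, in a territory of 1250 kb that also held 12 shared sites. Among lymphocyte markers 2 of 9 (22.2%) held a member, with 2 at Ptprc (CD45). One of the Ptprc members, at chr1:137751693-137751921, held a PU.1 match. Of 12 neuronal genes, included as genes that liver does not use, 3 held a member, with 3 at Rbfox3, and the density of 1.05 per Mb of territory was the lowest of the lists. How far chromatin of cells other than hepatocytes contributed members was not tested.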

How the data were processed

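ChIP-seq was performed in the study on mouse liver, and 40 samples in 18 groups were labelled. The authors aligned single-end reads to mm10 with Bowtie, kept unique alignments, called peaks with HOMER on 3 pooled replicates against input and filtered them with DESeq2. The deposited lists for NCoR, SMRT and HDAC3 (fed control mice, 9 libraries) hold coordinates only (chromosome, start, end), with no measured unit, and every NCoR interval spans 228 bp. The other 31 samples were not used here.

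Members were found from peak centres with the study's 200 bp overlap distance and TSSs of the GENCODE vM21 basic annotation, and sequence came from RefSeq GRCm38.p6. The members, gene lists (15, with 242 of 244 genes found) and motifs were chosen with earlier results of these data known. Windows of 200 bp were searched for 29 motifs, and flank windows were kept where their centre was over 400 bp from any peak centre. The DR1, DR4, IR1, HNF1, NF1, IRF, MEF2, NRF1, YY1 and CTCF motifs were fixed strings too long to print here, with free positions where the factor tolerates any base. C/EBP was TTGCGCAA or TTGTGCAA or TTATGCAA, HNF6/CUX2 was TATCGATC or TATCGATT or TATTGATC or TATTGATT, and BCL6/STAT was TTCCNAGAA or TTCCNGGAA or TTCTNAGAA or TTCTNGGAA. The others, single strings spelled out in the results or here, were FOX, HNF4, ERR, REV-ERB/ROR, AP-1, CREB (TGACGTCA), E-box, D-box, ETS/ELK, PU.1, TEAD (ACATTCCA), RUNX (TGTGGTTA), GATA (AGATAAGA), SOX (AACAATGG) and SP/KLF.

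Shares carry exact (Clopper-Pearson) 95% intervals and odds ratios carry normal 95% intervals on the log scale. Classes were compared with Fisher's exact test (two-sided, scipy 1.17.1) and Benjamini-Hochberg adjustment within each family, and over GC strata of 5 percentage points with the Mantel-Haenszel test. Motif search, the counting and comparison of words and the Mantel-Haenszel test were tested on simulated data, and distance functions on small examples. Other steps had no such test. Named genes were the 10 with the most members, the 5 with the most among those without a partnered peak, and the leading gene of each list. Other genes of the lists were named after their counts were seen, and some genes and motifs are not reported here. Named words were the 5 with the most extreme odds ratios in each direction past the threshold.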

Additional observations from a re-analysis of the deposited data

How the results depend on the processing

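Alternatives changed the overlap distance (100 or 400 bp), the promoter (5000 bp to either side), the TSSs (protein-coding only), the chromosomes, the window (central 100 bp), the repeats, the GC strata, the flanks (5 kb), the neighbour and gene distances and, chosen after seeing the data, the annotation (comprehensive). The number of members ran from 12108 (promoter of 5000 bp) to 17220. Of 160 recomputed main values, 152 were unaltered in direction and call (for counts, within 1.5 times). With the 5000 bp promoter, 132 words were more frequent and 145 less frequent in members, 2 motifs were higher than in NCoR-HDAC3 distal sites, and the odds ratios for a GC content of at least 50% (1.06) and for exons (1.08) were not past the threshold. In the central 100 bp, 0 motifs were higher than in NCoR-HDAC3 distal sites. Within GC strata, 197 words were more frequent, and 1 motif was higher than in NCoR-only promoter sites. The cause was not tested.

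Single motifs and lists gave 509 recomputed values, of which 474 stayed the same and 14 changed direction. Against shared distal sites the odds ratio became 1.04 (HNF4 half-site, central 100 bp), 1.12 and 1.05 (DR1, central 100 bp and sites without a neighbour within 10 kb), 1.05 and 1.0 (AP-1, likewise), 1.04, 1.02 and 1.499 (DR4, protein-coding TSSs, autosomes and sites without a neighbour), 1.89 (HNF1, without a neighbour) and 0.793 (TEAD, likewise). Against flanks it became 1.98 (CTCF, repeats removed), 0.999 and 0.965 (SOX, without a neighbour and with flanks 5 kb away) and 0.307 (MEF2, without a neighbour). Among these only CTCF was past the threshold, for reasons that were not tested. HNF1 had no match in flanks 5 kb away and so no odds ratio there.

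No paired analysis was possible because the lists pool the replicates. A stricter peak threshold and leaving out replicates were not run because the lists carry no score and no value per replicate.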
